A study of Rattus norvegicus with 6 samples.

Results

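The adenylyl cyclase agonist forskolin (FSK) was compared with control (CON) by ATAC-seq in WT INS-1, an insulinoma line of the rat that serves as a beta cell model. The comparison takes 2 of the 6 libraries of the series, WT CON and WT FSK, and asks where chromatin accessibility differed after 1 h with 10 µM FSK. WT CON received no agent, and the labels place the treated cells in serum-free medium before the agent was added. The other 4 libraries are WT INS-1 with 10 nM Exendin-4 (Ex-4), a GLP-1 receptor agonist, and Med14 S983A INS-1 in CON, with 10 µM FSK and with 10 nM Ex-4. Med14 S983A is a CRISPR knock-in that puts an alanine in place of a serine, in a PKA substrate motif, of the Mediator subunit Med14, and the labels do not say which of the independent mutant lines was sequenced. Each condition is 1 library, so there is no replicate spread, no SD and no test. Every difference below compares those libraries. Of 220490 merged peaks, 3 lay on the mitochondrial chromosome and were left out. Of the 220487 remaining, 184212 (83.5%) had a value in WT CON or WT FSK and form the comparison.

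FSK raises cAMP directly at the enzyme that makes it. In beta cells cAMP is also the second messenger of the GLP-1 receptor, and it activates protein kinase A (PKA), which phosphorylates the transcription factor CREB and leads to a rapid wave of target genes that includes AP-1 factors. ATAC-seq marks DNA that the Tn5 transposase can reach, mainly promoters and enhancers cleared of nucleosomes, so a higher value at a peak is called here opening and a lower value closing. Mediator links transcription factors bound at such elements to RNA polymerase II, and Med14 is its scaffold.

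The values are FPKM, the reads in a peak scaled to its length and to the reads counted in that library's own peaks. A value of 0 has a particular meaning in these data. No peak called in a library was listed at 0 in it, and between 116 and 141 peaks per library had a value without a call, so a 0 marks a peak absent from that library's own peak list and not a measured level of 0. Peaks at 0 in either WT library are therefore kept apart, and no fold is given for them. The reads counted in peaks came to about 151500000 in WT CON and 251200000 in WT FSK, a ratio of 1.66, and to between 134300000 and 163000000 in the other 4. WT FSK also had 1.29 times as many called peaks (169451 against 131256). Depth therefore moved with FSK, and its part in the number of calls was not tested. No rn6 genome or annotation was used here, so peaks are given by position alone, the genes and sequences beneath them are not analysed here, and the labelled cell type was not checked against its marker genes.

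The 184212 peaks fell into classes of unequal weight. Peaks called in both WT libraries numbered 116663, or 52.9% of the peaks off the mitochondrial chromosome, with a median length of 505 bp. They held 99.2% of the WT CON reads and 95.3% of the WT FSK reads. A further 52837 peaks (24.0%) were listed at 0 in WT CON and had a value in WT FSK. These were short, with a median of 175 bp, and together took 4.65% of the WT FSK reads. The reverse class, at 0 in WT FSK and with a value in WT CON, held 14623 peaks (6.63%), a median of 184 bp and 0.841% of the WT CON reads. After a filter on low values, which asked for 1 FPKM or more as the mean of the 6 libraries, 112198 of the peaks called in both were kept, as were 22053 of those at 0 in WT CON and 4950 of those at 0 in WT FSK. Counts of opened and closed peaks below are over the 112198.

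Among the peaks called in both, FSK left most values close to those of CON and moved a minority far, more of them up than down. The change, the difference of log2(FPKM + 0.5) between WT FSK and WT CON, had a median of -0.14, quartiles of -0.42 and 0.19, and 5th and 95th percentiles of -1.02 and 1.24. It was below 0 in 63.8% of the peaks. Since values are relative to the reads in peaks, the 4.65% of WT FSK reads in peaks at 0 in WT CON leave less for the others. The part of this in the median change was not tested. Past 2-fold, 8016 peaks opened (7.14%) and 5944 closed (5.30%), so that opened peaks made up 57.4% of the changed ones. Since the median change was itself below 0, the split depends on the scale. Counted from the median change, 9944 opened and 3820 closed (72.2% opened). The excess of opened peaks grew with the size of the change. At 1.5-fold the balance was the other way, 14940 (13.3%) against 18406 (16.4%), while at 4-fold 1465 peaks had opened against 171 closed, and at 8-fold 146 against 1. These folds include the added 0.5 FPKM, which shortens the distance to a low value.

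**Figure D1:**
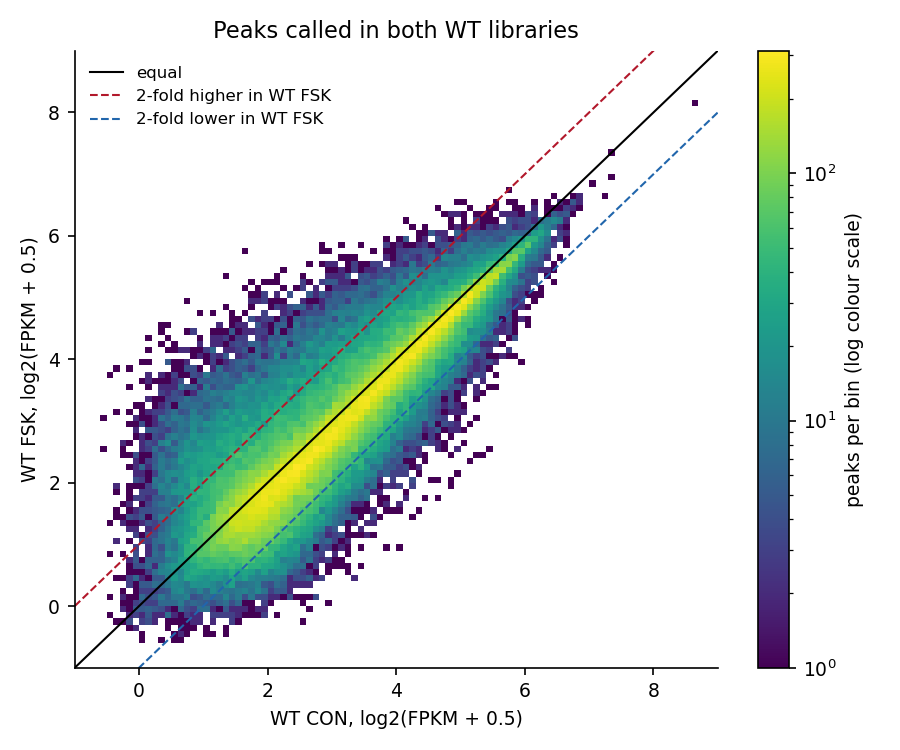
Level of each of the 112198 peaks called in both WT libraries, WT CON on the x axis and WT FSK on the y axis, both as log2(FPKM + 0.5), with colour giving the number of peaks per bin. The bulk lies slightly below the line of equal values, and the cloud beyond the upper 2-fold line (8016 peaks) reaches farther from it than that beyond the lower line (5944 peaks).

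The peaks at the 2-fold boundary show what the rule separates. The last opened peak, chr9:54261132-54261298, had 1.91 FPKM in WT CON and 4.32 in WT FSK. The first one left out, chr5:89282543-89282869, had 3.67 and 7.83. On the closing side the last peak inside had 14.3 and 6.91 FPKM (chr10:49595067-49595535), and the first outside had 18.9 and 9.19 (chr14:45752816-45753106). Reads were not scarce in these peaks. An opened peak held a median of 192 reads in WT CON and 1171 in WT FSK, a closed peak 433 and 254, and in all 8016 and all 5944 the 95% exact Poisson intervals of both values were apart. Those intervals cover counting error only, and say nothing of how far a second library of the same condition would fall.

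Opened peaks were weak in CON and of middling strength after FSK. Their median was 2.72 FPKM in WT CON and 9.65 in WT FSK, beside 6.87 and 6.60 for all peaks called in both. In WT Ex-4 the same peaks had a median of 3.74 FPKM, and in Med14 S983A their medians were 1.70 in CON, 5.51 with FSK and 2.94 with Ex-4. Closed peaks had a median of 6.47 FPKM in WT CON and 2.34 in WT FSK. Their medians were 5.17 in WT Ex-4 and 2.90, 0.800 and 2.42 in Med14 S983A CON, FSK and Ex-4. All peaks called in both had medians of 6.73 FPKM in WT Ex-4 and 5.26, 4.91 and 5.31 in Med14 S983A CON, FSK and Ex-4. An absent call enters these medians as 0. Only 66.4% of opened peaks were called in Med14 S983A CON, and only 54.3% of closed peaks in Med14 S983A FSK. Since the pair chose these peaks, a WT Ex-4 median between WT CON and WT FSK is no finding. The choice also shapes the WT CON and WT FSK levels of opened and of closed peaks. Opened peaks went from 2.20% of the reads in WT CON to 6.69% in WT FSK, and closed peaks from 3.25% to 1.25%.

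The 10 largest rises ran from 3.99 to 4.20 on the log2 scale. The first was chr15:553006-553624, a 618 bp peak with 0.246 FPKM in WT CON (23 reads), 13.2 in WT FSK (2047 reads) and 1.45 in WT Ex-4. In Med14 S983A it had 1.12 FPKM in CON, 14.5 with FSK and 3.86 with Ex-4. Both FSK libraries stood far above the other 4 at this peak, as they did at the second, chr6:26187757-26188335, where WT CON had 1.21, WT FSK 30.8 and WT Ex-4 4.21 FPKM. Its Med14 S983A values were 2.81, 29.5 and 6.51 in CON, FSK and Ex-4. The third, chr1:52707415-52708240, went from 0.632 FPKM in WT CON to 19.9 in WT FSK, with 6.52 in WT Ex-4, and belongs to a cluster described further on.

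The highest level reached among these 10 rises was at chr4:177415968-177416391, with 2.75 FPKM in WT CON against 54.6 in WT FSK, and 7.68 in WT Ex-4. It had 2.94, 38.2 and 9.93 FPKM in Med14 S983A CON, FSK and Ex-4. A pair of the 10 were close neighbours on chromosome 14. The 1626 bp peak chr14:3280616-3282242 went from 2.13 FPKM in WT CON to 41.2 in WT FSK, and chr14:3290317-3291437 from 0.902 to 22.7. In Med14 S983A the pair went from 4.04 to 39.8 and from 1.30 to 24.8 FPKM between CON and FSK, so the neighbours rose in both genotypes.

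The remaining 4 of these rises comprise 2 with a value in all 6 libraries and 2 without. chr16:26992508-26993172 went from 0.795 to 22.6 FPKM in WT and from 0.875 to 18.8 in Med14 S983A. chr5:122377348-122377791 went from 0.805 to 20.8 in WT and from 1.33 to 28.7 in Med14 S983A. Of these 10 peaks, 8 were called in all 6 libraries, with Med14 S983A changes between 2.79 and 4.0. Of the other 2, chr1:141065818-141066371 (0.621 to 17.3 FPKM in WT) was at 0 in Med14 S983A CON and at 10.4 FPKM with FSK. The other, chr20:49866585-49867670, was high in WT alone, with 0.298 FPKM in WT CON against 13.7 in WT FSK, and 3.94 in WT Ex-4 against 0, 0.730 and 0 in Med14 S983A CON, FSK and Ex-4.

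The 10 largest falls were shallower, from -3.10 to -2.83. In FPKM without the added 0.5, 9 of these 10 falls were at least 8-fold. The deepest on the log2 scale used here, and the only fall past 8-fold on it, was at chr9:8619801-8620220, with 15.9 FPKM in WT CON against 1.42 in WT FSK, and 5.27 in WT Ex-4. In Med14 S983A it had 0.906 FPKM in CON and was at 0 with FSK and with Ex-4, so this peak was already low in the mutant without an agent. The second, chr4:146786442-146787093, was called in all 6 libraries, with 44.3 FPKM in WT CON against 5.31 in WT FSK, and 23.3 in WT Ex-4. Its Med14 S983A values were 25, 4.16 and 9.26 FPKM in CON, FSK and Ex-4, low with FSK in both genotypes. The fifth, chr14:94273281-94273766, went from 40.3 FPKM in WT CON to 4.94 in WT FSK, with 16.4 in WT Ex-4, and from 4.53 to 1.67 in Med14 S983A.

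The other 7 of these falls, chosen on WT values alone, had low values or listed 0s in Med14 S983A. They had between 7.19 FPKM (chr1:189229396-189230035, 0.523 in WT FSK) and 35.5 FPKM (chr10:71521996-71522418, 4.57 in WT FSK) in WT CON. All 7 were at 0 in Med14 S983A FSK, and 3 of them, chr1:219808778-219809507, chr20:47021562-47022083 and chr2:34192316-34192772, were at 0 in every Med14 S983A library. Such a 0 is an absent call and does not show that signal was lacking. Over the 10 falls, 2 were called in all 6 libraries, against 8 of the 10 rises, beside 77.1% of all peaks called in both, 64.1% of opened and 53.1% of closed peaks. WT Ex-4 ran from 1.45 to 7.91 FPKM in the rises and from 2.81 to 23.3 in the falls. It lay between WT CON and WT FSK in each, a place that the choice of the extremes of that pair nearly fixes.

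Part of the lowest values lay under the level at which these libraries held peaks of their own. Peaks called in WT CON alone had a 1st percentile of 0.857 FPKM and those called in WT FSK alone one of 1.04 FPKM. A CON value below the first was found in 6 of the 10 largest rises and in 6.37% of opened peaks, against 0.831% of all peaks called in both. An FSK value below the second was found in 3 of the 10 largest falls and in 13.0% of closed peaks, against 1.75% of all. The length in the FPKM is that of the merged peak, while the reads come from the library's own peak, whose width was not analysed here. Leaving these peaks out gave 7505 opened and 5173 closed.

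Opening was rarest in the strongest peaks, and whether the weakest opened most often depended on how the level was set. Split by WT CON level into 5 groups of equal size, 19.3% of the lowest group opened (median level 2.14 FPKM) and 2.34% closed. In the highest group (27.6 FPKM) 0.780% opened and 3.41% closed. WT CON enters both the level and the change here, so a low draw in WT CON counts as both a weak peak and a rise. With the level taken from WT Ex-4, which is outside the contrast, opening still fell at each step, from 14% to 7.83%, 6.42%, 5.12% and 2.38%. With Med14 S983A CON as the level it fell from 15.8% to 1.28%. In that split 18052 of the 22440 peaks of the lowest group were listed at 0, which is an absent call and not a measured weak level. By WT Ex-4, 2732 of the lowest group were listed at 0. Closing was rarer in the lowest than in the highest group by WT CON alone. By WT Ex-4 it was 4.92% against 2.17%, by Med14 S983A CON 7.87% against 1.91% and by the mean of WT CON and WT FSK 7.87% against 1.68%. Outside the WT CON split the lowest group, with its listed 0s, thus closed more often than the highest. Split by the mean of WT CON and WT FSK, the lowest group was no longer ahead. Its share opened was 5.51%, the middle group's was 9.2% and the highest group's was 4.26%. The median change did not fall step by step. By WT CON it was 0.13, -0.20, -0.21, -0.17 and -0.16 from the lowest to the highest group, with the lowest group above the other 4. It was 0.29 higher in the lowest than in the highest group by WT CON, 0.11 higher by WT Ex-4 and 0.09 higher by Med14 S983A CON, but 0.07 lower by the mean of the pair. What held under all 4 choices was that the strongest peaks opened least often.

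**Figure D2:**
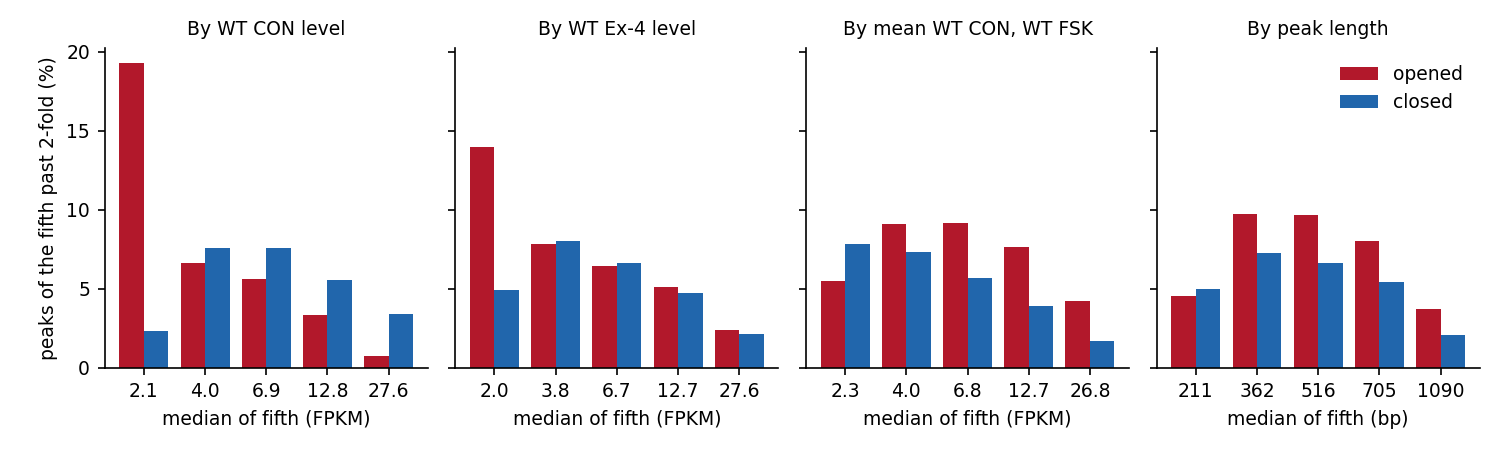
Share of peaks opened and closed past 2-fold in 5 groups of equal size of the 112198 peaks called in both, with groups set by WT CON level, by WT Ex-4 level, by the mean of WT CON and WT FSK, and by peak length, labelled with the median of each group. The lowest group by WT CON (19.3% opened) and by WT Ex-4 (14%) stands above the rest, the lowest by the mean of the pair (5.51%) does not, and by length the shortest and the longest groups open least.

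By length, change was most common in peaks of intermediate size. The shortest group (median 211 bp) had 4.55% opened and 5.02% closed, the next (362 bp) had 9.77% and 7.30%, and the longest (1090 bp) had 3.73% and 2.10%. The median change differed little over length, by -0.05 between the shortest and the longest group. Length and level are tied, since long peaks tend to be strong, so the shares were also taken over both at once with the WT Ex-4 level. The largest share opened, 20.3%, was in peaks of the middle length group (median 516 bp) and the lowest level. The smallest, 1.61% and 1.66%, were in the strongest of the shortest and of the longest peaks. Within every length group the share opened was higher at the lowest level than at the highest.

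Change differed with the number of other libraries that called the peak, in no single order. Of the 86465 peaks also called in the 4 other libraries, 5.94% opened and 3.65% closed. Of the 5581 also called in 2 of them, 15.6% opened and 8.65% closed. Of the 8995 called in 3, 13.9% opened and 12.5% closed. Of the 10791 called in 1, 6.76% opened, below the 7.14% of all, and 10.8% closed. The 366 called in none had 8.20% opened and 2.46% closed. The filter took its mean over all 6 libraries, so peaks with few other calls passed it mainly through WT CON and WT FSK. Of 1527 peaks called in both WT libraries and in no other, 366 passed, against 86465 of 86576 called in all 4 others. The shares by number of calls are therefore shaped by the filter. The mutant calls differed by direction. Opened peaks were called in Med14 S983A CON in 66.4% and in Med14 S983A FSK in 91.2% of cases, closed peaks in 77.1% and 54.3%, and all peaks called in both in 83.9% of cases in each. Med14 S983A FSK had 1.21 times the reads and 1.21 times the called peaks of Med14 S983A CON.

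The peaks listed at 0 in WT CON were mostly weak. Their median in WT FSK was 2.71 FPKM, on a median of 123 reads. Still, 9164 of the 52837 (17.3%) reached the median WT CON level of the peaks called in WT CON, 5.56 FPKM, and 623 reached 20 FPKM. By calls elsewhere, 51.4% of the 52837 were also called in Med14 S983A FSK, against 14.9% in WT Ex-4 and, in the mutant, 21.3% with Ex-4 and 12.5% in CON. The commonest pattern in the other 4 libraries was no call at all, in 21273 peaks (40.3%, median 2.38 FPKM and 134 bp), and the next was a call in Med14 S983A FSK alone, in 15497 (29.3%). A call in the mutant with FSK and not in its CON was found in 40.7% of the class, against 18.8% of all peaks off the mitochondrial chromosome. The share called in Med14 S983A FSK did not rise steadily with level. It was 67.7% under 1 FPKM (1441 peaks), 36.7% between 1 and 2, 50.4% between 2 and 5, 70.7% between 5 and 10, 66.9% between 10 and 20 and 75.8% from 20 FPKM. Between 1 and 5 FPKM it was below the share of all merged peaks called there, and at the other levels above it.

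The peaks listed at 0 in WT FSK showed the opposite order of calls. Their median in WT CON was 2.13 FPKM. Of the 14623, 47.9% were called in WT Ex-4, and in the mutant 29.9% without an agent, 29.5% with Ex-4 and 16.0% with FSK, while 35.0% had no call in the 4. These shares called were also below those of all merged peaks, of which 39.8% were listed at 0 in WT Ex-4. In the mutant, 46.0% of all merged peaks were at 0 without an agent, 41.3% with Ex-4 and 34.6% with FSK. A call in Med14 S983A CON and not in Med14 S983A FSK was found in 18.2%, against 7.40% of all peaks. This class lacked calls in the deeper library of the pair, and the part of depth and of peak calling in it was not tested.

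**Figure D3:**
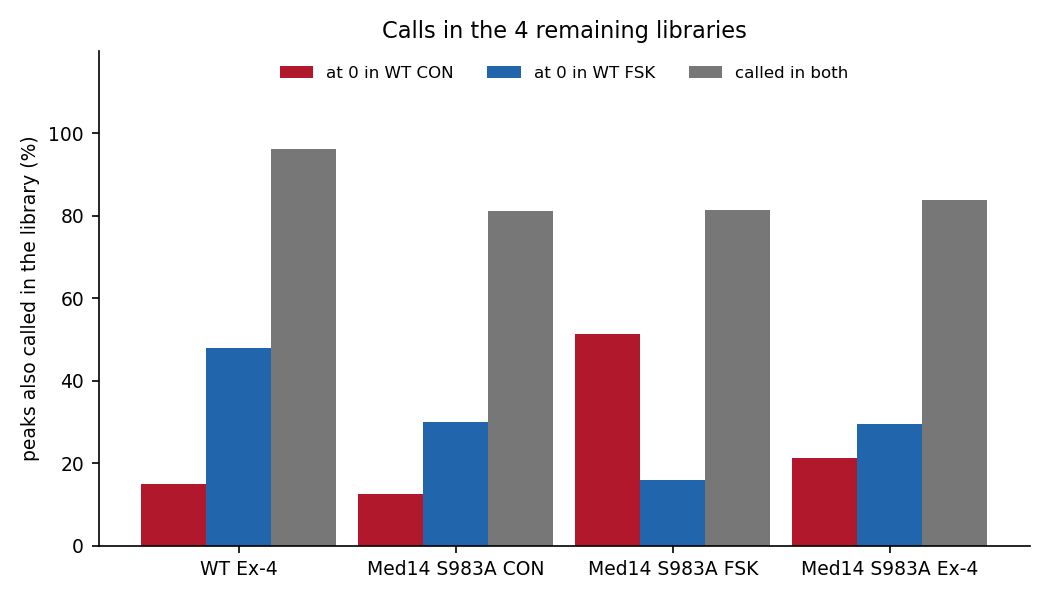
Share of the peaks at 0 in WT CON, at 0 in WT FSK and called in both that were also called in each of the 4 remaining libraries, in percent of the class. Peaks at 0 in WT CON were called most often in Med14 S983A FSK (51.4%) and those at 0 in WT FSK least often there (16.0%), while peaks called in both ranged from 81.2% to 96.1%. In each library both classes with a listed 0 were called less often than all merged peaks. Of all merged peaks, 34.6% were at 0 in Med14 S983A FSK.

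Strong peaks listed at 0 tended to lie beside other peaks. Of the 623 with at least 20 FPKM in WT FSK, 56.5% had an adjoining peak that was called in both and lay within 1 kb. The share was 26.1% of the peaks called in both at that level. The strongest, chr1:221207243-221207876, had 57.0 FPKM in WT FSK, 13.6 in WT Ex-4 and 44.1, 107 and 66.0 in Med14 S983A CON, FSK and Ex-4, so it was listed at 0 in WT CON alone. The peak 269 bp to its right had 66.7 FPKM in WT CON and 62.1 in WT FSK. The second, chr18:40589946-40590184, had 55.4 FPKM in WT FSK, 14.3 in WT Ex-4, 42.2 in Med14 S983A FSK and 17.9 in Med14 S983A Ex-4, and was at 0 in both CON libraries. A value in every stimulated library and in neither CON library was thus found at 1 of the 5 strongest.

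Of the other 3, chr16:81924545-81924718 (53.8 FPKM in WT FSK, 32.1 in Med14 S983A FSK) and chr7:143617263-143617514 (51.8 and 44.2 FPKM) had values in the FSK libraries alone. The last, chr7:11820529-11820946, had 50.5 FPKM in WT FSK, 60.8 in Med14 S983A FSK and 19.0 in Med14 S983A Ex-4, and was at 0 in the other 3. All 5 were called with FSK in both genotypes.

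The strongest peaks at 0 in WT FSK were fewer, 47 from 20 FPKM. An adjoining peak called in both lay within 1 kb of 42.6% of them. The first, chr3:81342574-81342988, had 41.4 FPKM in WT CON, 34.2 in WT Ex-4 and 45.4, 23.2 and 41.4 in Med14 S983A CON, FSK and Ex-4. Its neighbours on either side, 645 and 535 bp away, went from 17.3 to 38.9 and from 45.0 to 85.3 FPKM between WT CON and WT FSK. The 0 in WT FSK thus stood between peaks with higher values in that library. The second, the 131 bp chr1:240904086-240904217, had 40.1 FPKM in WT CON and was at 0 in the other 5 libraries. It lay 224 bp from a 2399 bp peak with 28.2 FPKM in WT CON and 25.8 in WT FSK.

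The other 3 were listed at 0 in both FSK libraries. chr9:10803181-10803297 had 38.2 FPKM in WT CON, 34.9 in WT Ex-4 and 40.6 in Med14 S983A CON. chr18:29211046-29211362 had 37.5, 21.1 and 15.1 FPKM in the same 3 libraries, and like the first was at 0 in Med14 S983A Ex-4 as well. chr7:12404506-12404660 had 37.2, 33.8 and 40.4 FPKM and also 35.6 in Med14 S983A Ex-4. The last of these lay 97 bp from a peak with 72.6 FPKM in WT CON and 91.0 in WT FSK.

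The 3 highest levels did not open. The strongest peak, chr4:77447566-77448627, had 405 FPKM in WT CON, against 286 in WT FSK and 383 in WT Ex-4, and 407, 364 and 376 in Med14 S983A CON, FSK and Ex-4. The next, chr1:99054598-99055420, had 163 FPKM in WT CON and 168 in WT FSK, and chr17:89414203-89415054 had 162 and 123. The first and the last were lower with FSK, and none passed 2-fold.

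Opened peaks lay near one another more often than peaks in general lay near opened ones. Another opened peak was found within 10 kb of 16.4% of opened peaks, against 9.83% of all 112198 peaks. Among all neighbours called in both within 10 kb, 13.0% of those of opened peaks had opened, against 7.18% of those of all peaks. Closed peaks were near closed ones in 13.4% of cases, against 6.27% of all peaks. The cross pairs were rarer, with 4.54% of opened peaks near a closed one (6.27% of all peaks) and 6.26% of closed peaks near an opened one (9.83% of all peaks). Peaks at 0 in WT CON also lay near opened peaks more often, in 15.0% of the 22053 that passed the filter, with 9.84% of their neighbours opened, and so did peaks at 0 in WT FSK, in 13.0% of 4950. Within 5 kb the shares were 8.0% and 9.56%, against 4.83% of all peaks called in both. Within 50 kb they were 44.3% for peaks at 0 in WT CON and 33.7% for those at 0 in WT FSK, against 35.6%. At that distance peaks at 0 in WT FSK were thus no longer near opened peaks more often.

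Between chromosomes the share opened varied less than the share closed. The share opened ran from 5.98% on chromosome X and 6.40% on chromosome 20 to 7.86% on chromosome 11 and 7.95% on chromosome 18, around the 7.14% of all peaks. The share closed ran from 3.66% on chromosome 12 and 3.69% on chromosome 10 to 6.56% on chromosome 18 and 6.71% on chromosome X, around 5.30%. The median change ran from -0.07 on chromosome 10 to -0.20 on chromosome X, which was the only chromosome with more closed than opened peaks (212 against 189). Over 549 runs of 200 neighbouring peaks, between 3 and 50 had opened, with a median of 14. The runs with most opened peaks were both on chromosome 1, at 48146833 to 52804313 with 50 opened (25%) and at 128801606 to 134989799 with 35 (17.5%). The fewest was 3 (1.5%), shared by 5 runs, on chromosome 1 at 94953945 to 100654901, chromosome 3 at 73897558 to 81288307, chromosome 9 at 11048108 to 15245355, chromosome 15 at 34233569 to 41431490 and chromosome 20 at 3967403 to 5542560.

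The first of these runs owed its count to its right end. Its stretch from 52 Mb on held 65 of the 200 peaks, of which 34 opened (52.3%) and 0 closed, with a median change of 1.07, while the 72 peaks between 48 and 49 Mb had 9 opened and a median change of -0.12. A closer look with windows of 20 neighbouring peaks was added after these values were seen. Among 111799 overlapping windows the median was 1 opened peak and the 95th percentile 4. The window at chr1:52552876-52756767, 204 kb long, had 17 of 20 opened, and 19 of 20 were higher in WT FSK. Of all peaks called in both, 36.2% were higher. Its median was 1.37 FPKM in WT CON, against 13.4 in WT FSK and 4.25 in WT Ex-4, and 2.00, 13.3 and 7.84 in Med14 S983A CON, FSK and Ex-4. Peaks not called in a library enter these medians as 0. Within the same span 124 of 160 merged peaks were listed at 0 in WT CON with a value in WT FSK, against 24.0% of all peaks. Of the window's 16 peaks called in both libraries of each genotype, 12 opened in Med14 S983A and 15 were higher there with FSK. Of all peaks so called, 4.60% opened there and 36.6% were higher.

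**Figure D4:**
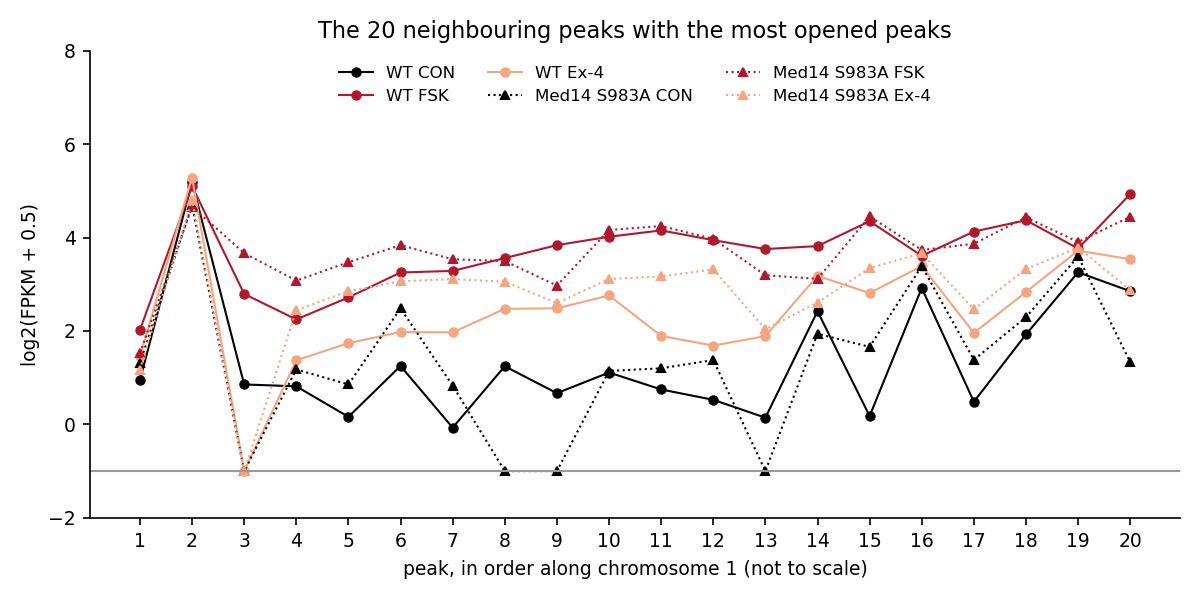
The 20 neighbouring peaks on chromosome 1 with the most opened peaks, in order along the chromosome, with the level in each of the 6 libraries as log2(FPKM + 0.5). The grey line at -1 is a listed 0. Apart from the second peak (35.9 FPKM in WT CON, 33.8 in WT FSK), both FSK libraries lie above their CON libraries along the stretch, and both Ex-4 libraries lie mostly between.

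Within this window the second peak was strong in every library, from 24.8 to 38.5 FPKM, and did not move with FSK. The peaks around it were weak in WT CON, at 0.453 to 9.06 FPKM for the other 19, and reached 3.56 to 30.0 FPKM in WT FSK. The seventh peak, for instance, had 0.453 FPKM in WT CON, against 9.26 in WT FSK, 3.42 in WT Ex-4 and 1.28, 11.1 and 8.14 in Med14 S983A CON, FSK and Ex-4.

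The 3 next windows with most opened peaks each had 13 of 20. At chr1:128959989-129118864 the median went from 2.70 FPKM in WT CON to 10.9 in WT FSK, and 63 of 93 merged peaks in the span were at 0 in WT CON. Only 6 of its 20 peaks were called in both libraries of each genotype, and 4 of these opened in Med14 S983A. At chr17:12142596-12414695 the median went from 11.2 to 18.1 FPKM, and at chr4:58328494-58442607 from 3.52 to 8.16. None of these 4 windows held a closed peak. In the last of them 8 of 15 peaks opened in Med14 S983A and all 15 were higher with FSK.

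Closed peaks reached lower counts per window. The highest was 12 of 20, at chr19:1290352-1566669, where the median fell from 5.85 to 4.10 FPKM and 2 peaks opened. At chr8:31534611-31974230 10 of 20 closed and 19 of 20 were lower in WT FSK. At chr12:25674358-25937528 9 closed, with a median of 12.0 FPKM in WT CON and 5.47 in WT FSK. At chr16:66293649-66689018 9 of 20 closed and all 20 were lower, with medians of 5.72 FPKM in WT CON, against 2.68 in WT FSK and 5.20 in WT Ex-4. In Med14 S983A 13 of its 15 comparable peaks were lower with FSK and 4 closed. Lower values were the majority everywhere. They made up 63.8% of all peaks called in both in WT. Of all comparable peaks in Med14 S983A, 63.3% were lower and 4.21% closed.

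FSK in Med14 S983A, with its own control, is the one other FSK pair that shares no library with WT. Across the 88565 peaks called in all 4 libraries, which share peak positions and widths, the 2 changes had a Pearson correlation of 0.844 and a Spearman correlation of 0.782. The sign was the same in 81.5%. Falls were the majority in each genotype, 63.8% of the 112198 peaks in WT and 63.3% of the 88565 in Med14 S983A, so many signs match from that alone. Over the 88565 peaks the median changes were -0.13 (WT) and -0.12 (Med14 S983A). Of the 5307 of these peaks that opened in WT (5.99%), 3228 (60.8%) also opened in Med14 S983A, where 4.60% of all 88565 did. These were 79.3% of the 4073 that opened in Med14 S983A. A rise of any size was seen in Med14 S983A for 98.2% of the WT-opened peaks, against 36.6% of all peaks. Of the 3193 closed in WT (3.61%), 1781 (55.8%) closed in Med14 S983A, where 4.21% of all did, and these were 47.8% of the 3725 closed there. A fall of any size was seen for 98.8%, against 63.3% of all peaks.

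The Med14 S983A change grew with the WT change. Its median was 0.56 where WT had risen by 0.585 to 1 on the log2 scale, 1.05 between 1 and 2, 1.82 between 2 and 3 and 2.70 above 3. On the side of falls it was -0.68, -1.05 and -1.66 for WT falls of 0.585 to 1, 1 to 2 and over 2. The Med14 S983A median of the WT-opened peaks was 1.15 beside 1.42 in WT, but they were chosen on the WT values. Chosen on the Med14 S983A values instead, the 4073 opened peaks had medians of 1.46 in WT and 1.37 in Med14 S983A. So WT had the higher median on both lists of opened peaks. For closed peaks the smaller change was in the genotype that had not chosen the list, with medians of -1.19 in WT and -1.05 in Med14 S983A for the WT list and -0.98 and -1.20 for the Med14 S983A list. These differences between genotypes were not tested.

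**Figure D5:**
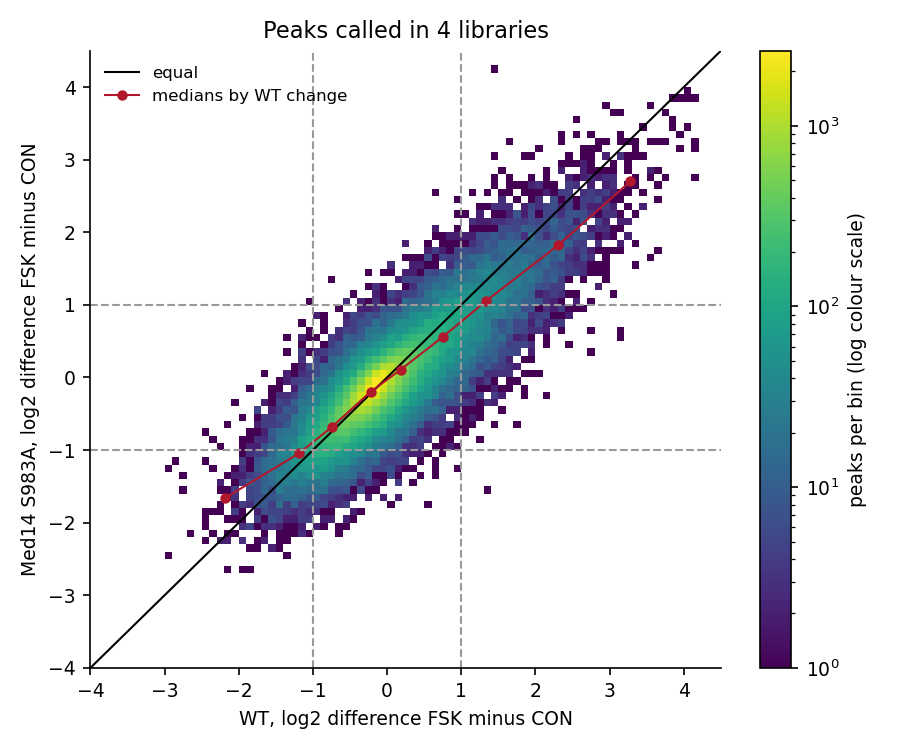
Change with FSK in WT (x axis) and in Med14 S983A (y axis), each as the log2 difference FSK minus CON, for the 88565 peaks called in all 4 libraries, with colour for the number of peaks per bin, dashed lines at 2-fold and red points for the medians of peaks grouped by WT change. The cloud runs along the line of equal change, and at both ends the medians are smaller in size in Med14 S983A than in WT. They are -1.66 beside -2.185 at WT falls over 2 and 2.70 beside 3.279 at WT rises over 3. The groups were set by the WT change.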

How the data were processed

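ATAC-seq was measured in 6 INS-1 libraries, 1 per condition. Per the study's methods and the submitters' processing notes, reads were trimmed with Trim Galore and aligned to rn6 with BWA. SAMtools removed mitochondrial, poorly mapped and duplicate reads, and MACS2 called peaks in each library. The deposited FPKM values are the authors' HOMER counts over 1 merged set of peaks. FPKM times length, summed over peaks, came to 98.6 to 99.0% of the scale, so the values are relative to reads in each library's own peaks. Whole reads were recovered from the FPKM steps (100% of 3000 values per library within 0.15 of a whole number) and gave the depth, 134300000 to 251200000 reads, and exact Poisson intervals for counting error. The sources used here do not say whether a unit is a read or a fragment.

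Changes were differences of log2(FPKM + 0.5), which understates the change of low peaks, for peaks whose 6 values averaged 1 FPKM or more. A peak opened or closed past 2-fold. Named by rule were the 10 largest rises and falls, the 5 strongest peaks at 0 in either WT library, the 3 highest levels, the peaks next to the 2-fold boundary, and the 2 chromosomes and runs of 200 peaks with most and with fewest opened, ties included. Parts of that rule on genes, cell type markers and motifs need an rn6 annotation and were not used here. Alternatives were other pseudocounts, filters, scalings, fold rules, depth, peak sets and distances. Windows of 20 peaks and 3 further alternatives were added after the values were seen. The members and lists were chosen with earlier results of these data known. Tools were scipy 1.17.1, pandas 2.3.3 and numpy 2.4.6 under Python 3.11.15, with matplotlib 3.10.9 for figures, and the scripts were tested on simulated data.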

Additional observations from a re-analysis of the deposited data

Results flagged for a closer look

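The 88565 peaks called in all 4 CON and FSK libraries held 1 peak that opened past 2-fold in WT and closed past 2-fold in Med14 S983A, and 1 with the reverse pattern. They were picked out because the 2 genotypes moved in opposite directions, and the difference was not tested. The first, chr17:75357139-75357586, had 1.65 FPKM in WT CON, 4.94 in WT FSK and 6.39 in WT Ex-4, and 6.30, 1.84 and 6.23 in Med14 S983A CON, FSK and Ex-4. The second, chr1:199054098-199054477, had 2.26, 0.819 and 2.23 FPKM in WT CON, FSK and Ex-4, and 1.18, 2.98 and 2.29 in Med14 S983A.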

How the results depend on the processing

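No paired analysis was possible because a condition is a single library, and none could be left out for the same reason. The count of peaks at 0 in one library rests on peak calling, which was not repeated at equal depth. Opened peaks numbered 14940 at 1.5-fold, 1465 at 4-fold, 5139 in peaks called in all 6 libraries and 5047 in peaks with no other peak within 1 kb. Closed peaks numbered 18406, 171, 3158 and 3841 under the same settings, 3360 with a mean of at least 3 FPKM and 3820 from the median change. With the WT FSK reads thinned to the WT CON total they were 8037 and 6033. The opened share of changed peaks was 53.3% and 62.8% with pseudocounts of 0.1 and 1, 63.5% with each library centred, 64.5% with quantile normalization and 72.2% from the median change. The median change stayed below 0 in all, at -0.150 and -0.133 with those pseudocounts, -0.134 with at least 3 FPKM, -0.086 centred, -0.083 quantile normalized, -0.135 in peaks called in all 6, -0.152 in peaks without a near neighbour and -0.138 without values under the level of peaks called in 1 library. Peaks at 0 in WT CON were 52837 without the filter, 4668 with at least 3 FPKM and 6856 at or above the median of the peaks called in both. Those at 0 in WT FSK were 14623, 812 and 833. The lowest minus the highest group by level was 0.321 and 0.270 with the pseudocounts, 0.244 with at least 3 FPKM, 0.206 in peaks called in all 6, 0.114 by WT Ex-4, 0.089 by Med14 S983A CON and, reversed, -0.069 by the mean of the WT pair, in which WT CON no longer sets the level alone. The shortest minus the longest group was -0.066, -0.041, -0.042 and -0.035 under the first 4 of these. The share of WT-opened peaks opened in Med14 S983A was 58.5% with pseudocount 1, 62.9% with at least 3 FPKM, 65.6% centred, 66.8% at 1.5-fold and 41.6% at 4-fold. That of closed peaks was 58.7% and 52.2% with the pseudocounts, 60.4% with at least 3 FPKM, 48.7% centred, 45.0% quantile normalized, 68.5% at 1.5-fold and 23.1% at 4-fold. Opened peaks with another within 10 kb were 17.7% and 15.5% with the pseudocounts, 15.6% with at least 3 FPKM, 17.6% centred, 17.7% quantile normalized, 26.3% at 1.5-fold and 5.60% at 4-fold, and 8.88% and 46.1% within 5 and 50 kb.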

Other observations

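Outside the comparison, 36275 of the merged peaks off the mitochondrial chromosome (16.5%) were listed at 0 in both WT CON and WT FSK and owe their place to the other 4 libraries. Their median length was 143 bp, and 7688 of them passed the filter. A further 89 peaks had a value in both WT libraries without a call in both, with medians of 0.319 FPKM in WT CON and 0.882 in WT FSK.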
